A study of Drosophila melanogaster with 40 samples.

Results

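The genes described here are 10 components of the piRNA pathway of Drosophila melanogaster. They comprise the PIWI proteins piwi (FBgn0004872), aub (FBgn0000146) and AGO3 (FBgn0250816), the helicases and Tudor-domain proteins armi (FBgn0041164), spn-E (FBgn0003483), krimp (FBgn0034098) and qin (FBgn0263974), and the proteins rhi (FBgn0004400), del (FBgn0086251) and cuff (FBgn0260932), which act at piRNA clusters. They were chosen by name for their place in the pathway and not by any measured value, and they were followed among the 17665 genes listed in at least 1 of 7 expression tables. All 10 were listed in each of the 12 expression columns of those tables. The expression columns covered ovaries and embryos of the wild-type strain w1118 and of mutants of jumu, which encodes a Forkhead-domain protein, and of DMAD, which encodes an enzyme that removes N6-methyladenine (6mA) from DNA. In jumu mutant ovaries and in the eggs that jumu mutant mothers laid, jumu had been disrupted with CRISPR/Cas9 (alleles jumu1 and jumu2, which of them was in each sample not being given in the labels). Embryos labelled M-,Z+ jumu lacked the maternal product and carried a paternal wild-type copy, and embryos labelled M-,Z- jumu lacked both, and they are written M-Z+ and M-Z- below. Embryos labelled M- DMAD lacked maternal DMAD. The embryos were collected 0.75 h, 3 h and 6 h after fertilization. Wild-type embryos were collected separately as the partner of the jumu mutants (0.75 h and 3 h), as the partner of M- DMAD (3 h) and as a stage series (0.75 h, 3 h and 6 h). In addition, 6 peak lists gave 6mA immunoprecipitation in w1118 embryos at 3 stages and in w1118 embryos injected with double-stranded RNA against DMAD at 6 h, and binding of recombinant Flag-Jumu to w1118 embryo DNA at 0.75 h and 6 h.

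piRNAs are small RNAs that guide PIWI proteins to transposon transcripts and to transposon chromatin, mainly in the germline. In the fly ovary their long precursors are transcribed from piRNA clusters, where the Rhino, Deadlock and Cutoff proteins allow transcription from heterochromatin, and are processed in nuage, a structure at the nuclear envelope of nurse cells, and at mitochondria. Aub and AGO3 amplify piRNAs against active transposons by cutting opposite strands in turn, Piwi acts in the nucleus, and mothers load piRNAs, their proteins and the mRNAs of many pathway genes into the egg.

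Each expression value was 1 deposited FPKM (fragments scaled to transcript length and to the number of fragments mapped) per gene and group, into which the 2 libraries of the group had already been combined. No replicate spread could be computed, so no test was run on any expression difference, and depth was unknown. A difference between groups was taken in log2(FPKM + 1), which understates the change of genes of low level. A gene was counted as changed at a difference of at least 1 where the mean FPKM over the groups compared was at least 1. The share of all genes that met the same rule is given beside the counts of members and of other pathway genes. Summed FPKM ranged between 631644 and 1295290 over the 12 columns. Ovaries carried the tissue label embryo, and the summed FPKM of 8 follicle cell markers was 13404 in jumu mutant ovaries and 30503 in wild-type ovaries, against at most 17.4 in any embryo column. The jumu transcript did not separate the jumu groups, with 68.9 FPKM in mutant and 68.0 FPKM in wild-type ovaries, and with 103 FPKM in M-Z+ and 55.5 FPKM in M-Z- embryos against 71.8 FPKM in wild-type embryos at 3 h. The DMAD transcript was at 3.41 FPKM in M- DMAD embryos and 1.49 FPKM in their wild type. Directions therefore rest on the sample labels.

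In wild-type ovaries the members fell into an abundant and a scarce set. AGO3 was the highest at 144 FPKM, followed by piwi at 120.1, del at 88.4, krimp at 80.2, armi at 66.4, spn-E at 62.2 and aub at 59.7 FPKM. The other 3 were rhi at 25.1, qin at 13.4 and cuff at 7.31 FPKM. With 1 value per group, neighbours in this order cannot be separated. The order was much the same in wild-type embryos of the jumu series at 0.75 h, where AGO3 led at 198 FPKM and cuff was last at 9.52 FPKM. In the stage series at 0.75 h krimp led at 107 FPKM, AGO3 was in place 6 at 64.2 FPKM and cuff was again last. At 3 h AGO3, aub and rhi led in the wild types of the jumu and stage series, and rhi led in the wild type of the DMAD series at 55.7 FPKM. At 6 h cuff was the highest member at 16.4 FPKM and del the lowest at 0.733 FPKM.

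**Figure D1:**
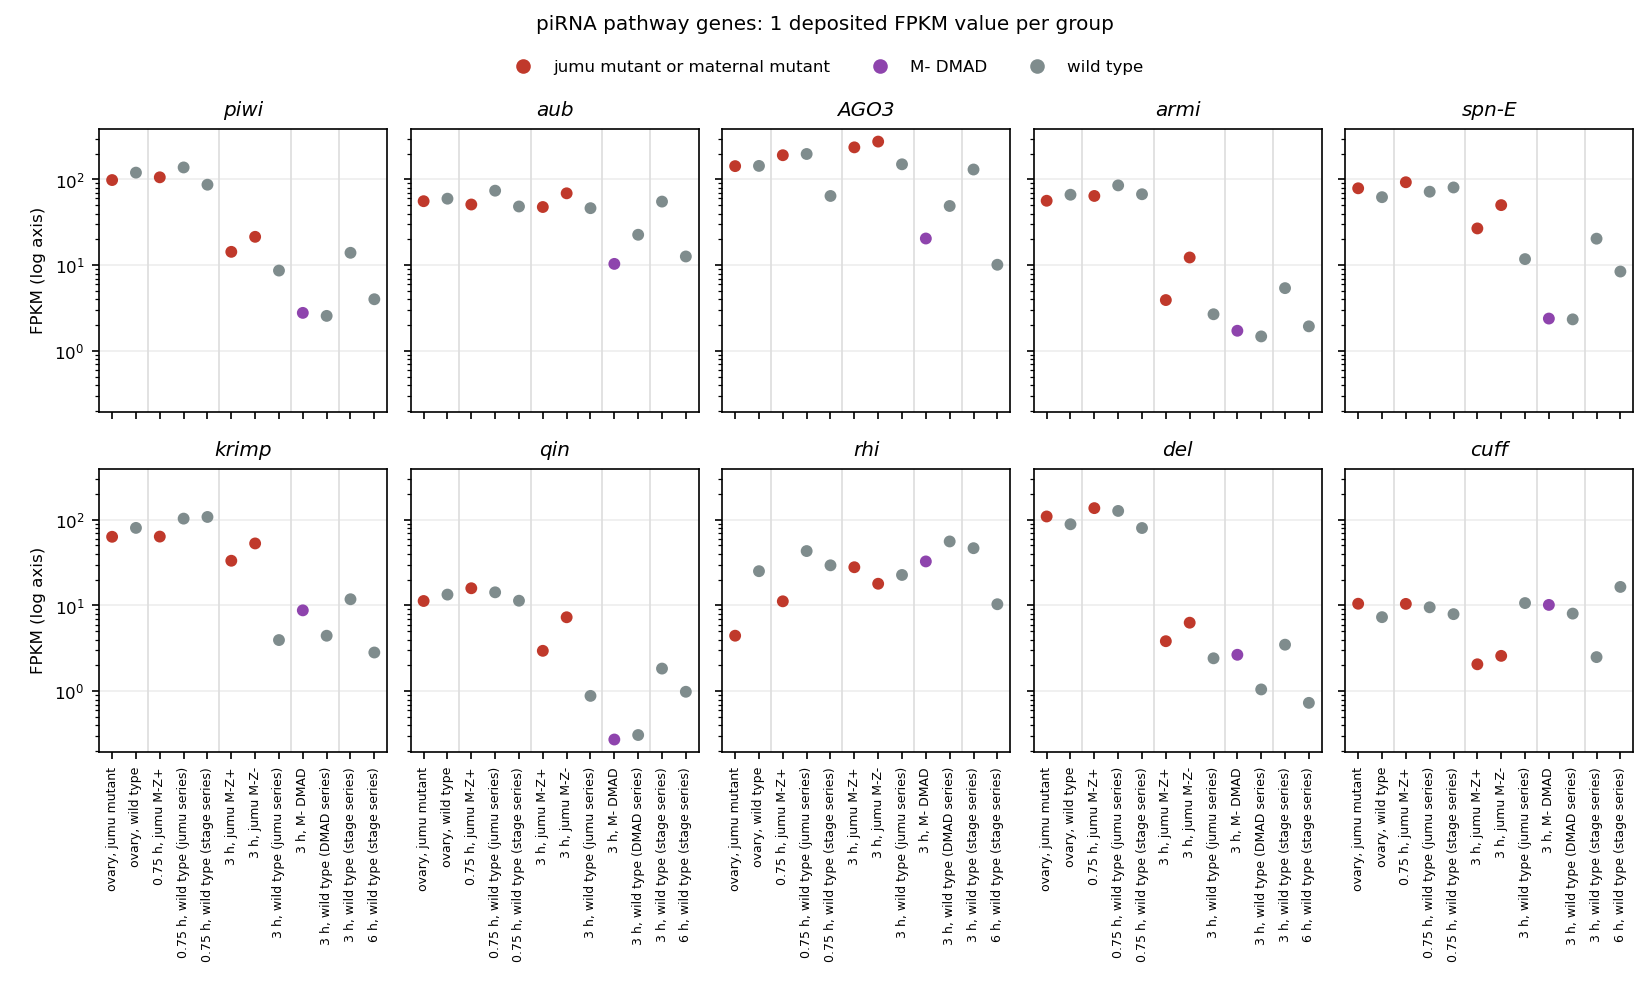
FPKM of the 10 genes (log axis) in the 12 groups, 1 deposited value per group, with mutants left of their wild type and stages in order of time. Points stand for groups and carry no error. In jumu mutants rhi sat at 4.44 FPKM in the ovary and 11.2 FPKM at 0.75 h, below the wild types, and krimp sat at 33.2 and 52.8 FPKM at 3 h, above all 3 wild types.

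The members lay on 4 chromosome arms (dm6 coordinates, Ensembl genes). piwi (chr2L:10982205-10987420), aub (chr2L:10997819-11001476) and del (chr2L:21145137-21148546) lay on the minus strand of 2L. AGO3 (chr3L:23554593-23689640) and armi (chr3L:3461317-3466314) lay on the plus strand of 3L, and spn-E (chr3R:15837419-15844415) and qin (chr3R:18591027-18650137) on the plus strand of 3R. krimp (chr2R:16238103-16240722) and rhi (chr2R:17628491-17633516) were on the minus strand and cuff (chr2R:11886067-11887603) on the plus strand of 2R. Levels of armi are uncertain, since an overlapping annotation on the same strand, CG46463, which the tables do not list, shared 99.6% of its exon bases. Where exons overlapped a neighbour on the other strand, the shared part was 6.22% of the exon bases of piwi (with SCAR), 2.78% for cuff (with ERp60), 2.62% for aub (with TTLL4A) and under 0.35% for any overlap of del or qin. Whether strand was kept in counting was not given in the sources used here.

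The ovary comparison set jumu mutants against wild type in the tissue that supplies the egg. Of the 10 members 1 changed in jumu mutant ovaries, against 5.99% of the 7699 genes tested (4.42% lower and 1.57% higher). That member was rhi, which encodes the HP1-family protein that binds piRNA clusters. The level of rhi was 4.44 FPKM in jumu mutant ovaries and 25.1 FPKM in wild-type ovaries, a difference of −2.26 in log2(FPKM + 1), the 66th lowest of all genes tested. In these bulk samples, fewer cells of a type and less RNA per cell cannot be told apart. The genes of the partners of Rhino did not meet the rule. The level of del, which links Rhino to the transcription machinery, was 109 FPKM in mutant and 88.4 FPKM in wild-type ovaries, and that of cuff, which protects cluster transcripts from termination, was 10.5 and 7.31 FPKM. The differences of the 9 members other than rhi lay between −0.34 and 0.47, the lowest at krimp and the highest at cuff.

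The same member stood apart at 0.75 h, when the embryo still lives on maternal RNA. The level of rhi was 11.2 FPKM in jumu M-Z+ embryos and 43.1 FPKM in their wild type, a difference of −1.86, and the stage-series wild type had 29.4 FPKM. It was the only one of the 10 members to change, against 4.70% of the 7474 genes tested (3.36% lower and 1.34% higher). The next lowest difference was that of krimp, which encodes a Tudor-domain scaffold of nuage, with 63.5 FPKM in M-Z+ embryos against 103 and 107 FPKM in the 2 wild types, a difference of −0.69 from the wild type of the jumu series that does not meet the rule. Levels in M-Z+ embryos were below both wild types for 3 members (rhi, armi and krimp), against 33.6% of all genes, and above both for 4 (spn-E, qin, del and cuff), against 36.2%.

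Genes at the rhi locus were lower in the same samples. rhi and CG10936 overlap on the same strand with no shared exon base, and Oxp lies 280 bp from rhi. Whether intron reads of rhi or CG10936 entered the value of the other gene was not tested. Oxp was at 31.6 FPKM in jumu mutant and 87.7 FPKM in wild-type ovaries, and at 15.5 FPKM in M-Z+ embryos and 53.1 and 72.3 FPKM in the 2 wild types at 0.75 h. CG10936 was at 0.590 FPKM in mutant and 3.53 FPKM in wild-type ovaries, and at 0.524 FPKM in M-Z+ embryos and 3.44 and 2.70 FPKM in the wild types. These were the 2 listed genes within 10 kb of rhi, and of the 13 genes tested within 50 kb they were the 2 that changed in either comparison. Within 10 kb of the other 9 members, 1 tested gene changed in the ovary, CG7695 beside qin, and none did at 0.75 h. Within 50 kb of them sty, by armi, was also lower in the ovary, and c(3)G, by spn-E, in both comparisons. The jumu genotype and any other difference between the mutant strain and w1118 at this locus cannot be told apart. At 3 h the 3 genes no longer moved together: Oxp was at 15.0 FPKM in M-Z+ and 18.8 FPKM in M-Z- embryos against 5.4 FPKM in wild type, and CG10936 was at 1.88 and 0.167 FPKM against 1.51 FPKM. Oxp and CG10936 were singled out after their values had been seen.

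**Figure D2:**
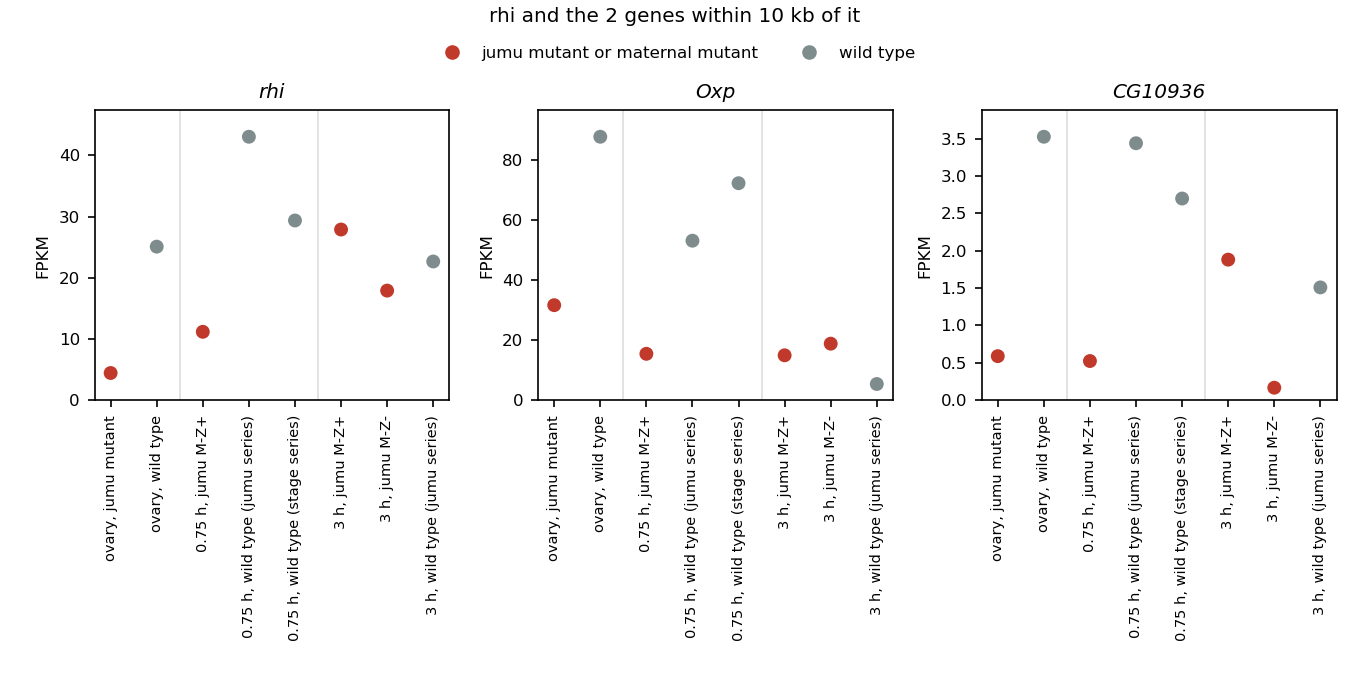
FPKM (linear axes from 0) of rhi and of the 2 listed genes within 10 kb of it, in jumu mutants (red) and wild type (grey), 1 deposited value per group. All 3 genes were lower in jumu mutant ovaries and in M-Z+ embryos at 0.75 h than in each wild type of that stage, and at 3 h Oxp was higher in both mutants than in the wild type.

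Cell type markers were set beside the ovary result. Of 8 follicle cell markers 6 were lower in jumu mutant ovaries, among them the yolk protein genes Yp1, Yp2 and Yp3. The eggshell genes Cp36 (1386 against 2080 FPKM) and Cp38 (2393 against 3728 FPKM) did not meet the rule. The median difference of the 8 was −1.25, and their summed level was 13404 against 30503 FPKM. Of 7 female germline markers 1 was lower, bam, at 7.52 FPKM in mutant and 22.3 FPKM in wild-type ovaries, and their summed level was 2680 against 2513 FPKM. The part of either list in the level of rhi was not tested. At 0.75 h the summed level of the follicle markers was 0.353 FPKM in M-Z+ embryos and 0.456 FPKM in wild type, with 3 of the 8 listed in that table, and bam was again lower (9.07 against 28.4 FPKM).

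At 3 h, when zygotic transcription has begun and maternal mRNA is being cleared, the picture in jumu mutants was another one. In M-Z+ embryos 4 of the 10 members changed, 3 higher and 1 lower, against 21.6% of the 9296 genes tested (12% higher and 9.54% lower). In M-Z- embryos 7 changed, 6 higher and 1 lower, against 39.1% of 8941 genes (20.2% higher and 18.9% lower). The 2 comparisons share their wild type. The median difference of the 10 members was 0.58 in M-Z+ and 1.15 in M-Z- embryos, against 0.08 and 0.10 for all genes.

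All 4 helicases and Tudor-domain proteins were higher in M-Z- embryos, and 3 of them in M-Z+ embryos. krimp was at 33.2 FPKM in M-Z+ and 52.8 FPKM in M-Z- embryos, against 3.95 FPKM in the wild type of the jumu series, differences of 2.79 and 3.44. These were the 32nd and 24th highest of all genes tested. The wild types of the other series, at 4.44 and 11.8 FPKM, also lay well below both mutants, and krimp was the one member that changed in M-Z+ embryos whichever of the 3 wild types was used. qin, which encodes a Tudor and E3-ligase-domain protein that keeps Aub and AGO3 in ping-pong with each other, was at 2.96 FPKM in M-Z+ and 7.29 FPKM in M-Z- embryos against 0.884 FPKM in wild type (differences 1.07 and 2.14). spn-E, a DExH-box helicase with a Tudor domain, was at 26.9 and 50.2 FPKM against 11.8 FPKM (1.12 and 2.00). armi, the RNA helicase of precursor processing, was at 3.93 and 12.3 FPKM against 2.69 FPKM, a difference of 1.85 in M-Z- embryos and of 0.42, below the rule, in M-Z+ embryos.

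Of the 3 PIWI proteins 1 met the rule, in M-Z- embryos. piwi was at 14.3 FPKM in M-Z+ and 21.5 FPKM in M-Z- embryos against 8.68 FPKM in wild type (0.66 and 1.21). AGO3 was at 237 and 276 FPKM against 150.2 FPKM, and aub at 47.7 and 68.9 FPKM against 46.3 FPKM, and neither met the rule. In the Rhino complex the 3 genes went separate ways. cuff was lower, at 2.06 FPKM in M-Z+ and 2.59 FPKM in M-Z- embryos against 10.7 FPKM in wild type (−1.93 and −1.70), del was at 3.83 and 6.30 FPKM against 2.42 FPKM (0.50 and 1.09), and rhi was at 27.9 and 17.9 FPKM against 22.7 FPKM (0.29 and −0.32). The lower level of cuff depended on which wild type it was set against: in the wild type of the stage series it was at 2.5 FPKM, and the difference of M-Z- embryos from that group was 0.035. The study sequenced the stage series on another platform and at another read length than the jumu series of 3 h. Against the wild type of the stage series piwi (0.58) and del (0.70) no longer met the rule in M-Z- embryos, while AGO3 (1.08) and rhi (−1.33) did, and qin (0.48) and spn-E (0.38) no longer met it in M-Z+ embryos. With the median of all genes centred at 0, qin in M-Z+ embryos (0.99) and del in M-Z- embryos (0.99) lay just under the rule.

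**Figure D3:**
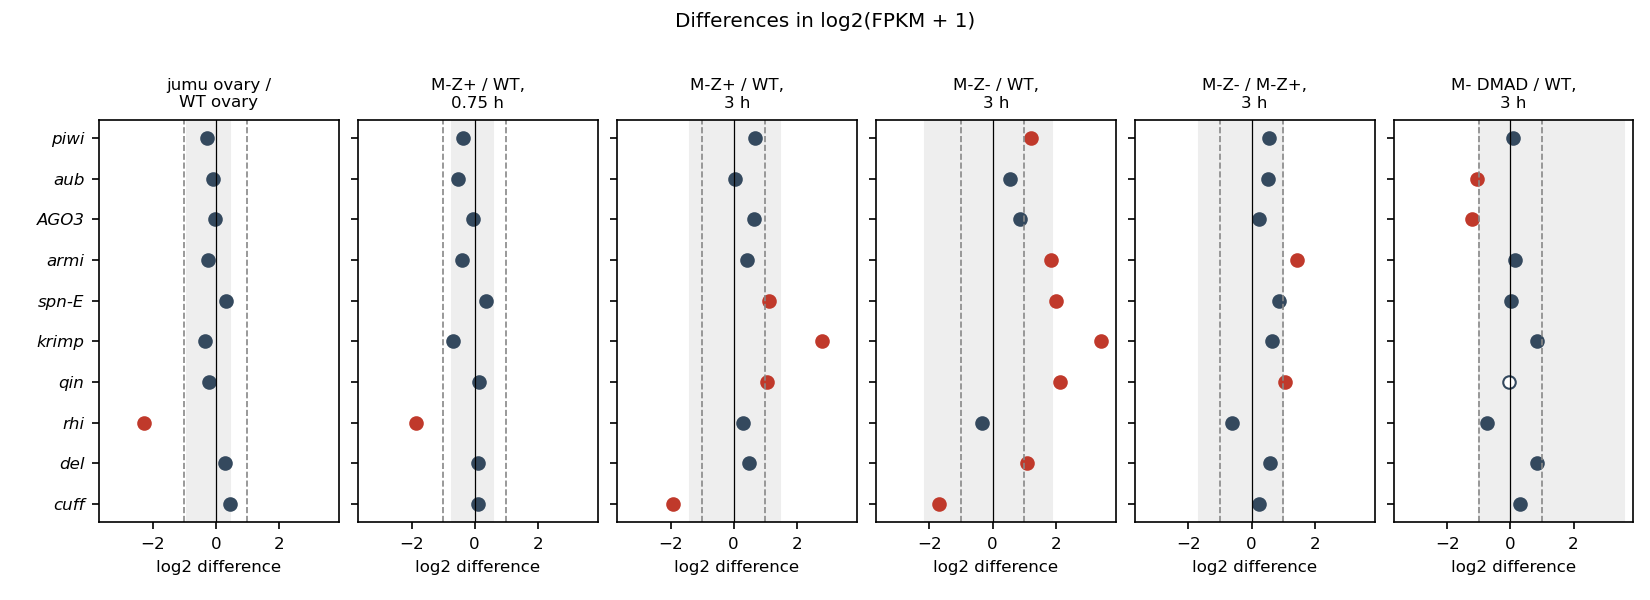
Difference in log2(FPKM + 1) of each of the 10 genes in 6 comparisons, 1 panel each. Dashed lines mark differences of 1, red points met the rule, the open point did not pass the filter on low values, and grey bands hold the middle 90% of all genes tested. rhi met the rule in the ovary (−2.26) and at 0.75 h (−1.86), and krimp was at 2.79 and 3.44 at 3 h.

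M-Z- embryos differed from M-Z+ embryos, which lack the maternal product alone, in the same direction for most members. Levels in M-Z- embryos were above those in M-Z+ embryos for 9 of the 10 members, rhi being the exception. The median difference of all genes was itself above 0, at 0.07. The share of all genes with a higher level in M-Z- embryos was not computed, so the count of 9 has no background. Only 2 members met the rule, armi (1.43) and qin (1.06), against 5.13% of all 8480 genes tested that were higher and 17.0% that changed either way.

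Marker lists were set beside these members as well. Of the 5 measured maternal mRNAs of the early embryo 3 were higher in M-Z+ and 4 in M-Z- embryos, and their summed level was 1090 and 2444 FPKM, against 526 FPKM in wild type. One of them, bcd, the maternal mRNA of the anterior determinant, was at 34.1 FPKM in M-Z+ and 105 FPKM in M-Z- embryos against 1.29 FPKM in wild type. The summed level of 9 early zygotic genes was 921 FPKM in M-Z+ and 518 FPKM in M-Z- embryos against 890.5 FPKM in wild type, and 4 of them were lower in M-Z- embryos. Another of the 9, nullo, was higher in both mutants, at 44.5 FPKM in M-Z+ and 48.4 FPKM in M-Z- embryos against 13.4 FPKM in wild type. Of the 7 germline markers 2 were higher in M-Z+ and 5 in M-Z- embryos, with a summed level of 137 and 229 FPKM against 89.2 FPKM in wild type. The part of these lists in the levels of the members was not tested.

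Levels at 3 h were also set against those at 0.75 h, in a separate table with no stated common scaling. The 3-h values are those given above, so the ratios are no separate observation of the 3-h differences. The level of krimp at 3 h was 52.3% of that at 0.75 h in M-Z+ embryos, against 3.85% in the wild type of the jumu series and 11% in that of the stage series. For all genes with at least 5 FPKM at 0.75 h the median was 74.9% in M-Z+ embryos, 57.8% in the wild type of the jumu series and 71.9% in that of the stage series. For piwi (13.5%), armi (6.12%), spn-E (29.0%), qin (18.7%) and del (2.81%) the share in M-Z+ embryos was above that in the wild type of the jumu series (6.29%, 3.15%, 16.4%, 6.21% and 1.92%). In the stage series it was 16.1%, 8.05%, 25.3%, 16.2% and 4.37% for these 5, above M-Z+ embryos for piwi, armi and del. The level of rhi was 249.5% of its low 0.75-h level in M-Z+ embryos, against 52.7% and 158% in the wild types.

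**Figure D4:**
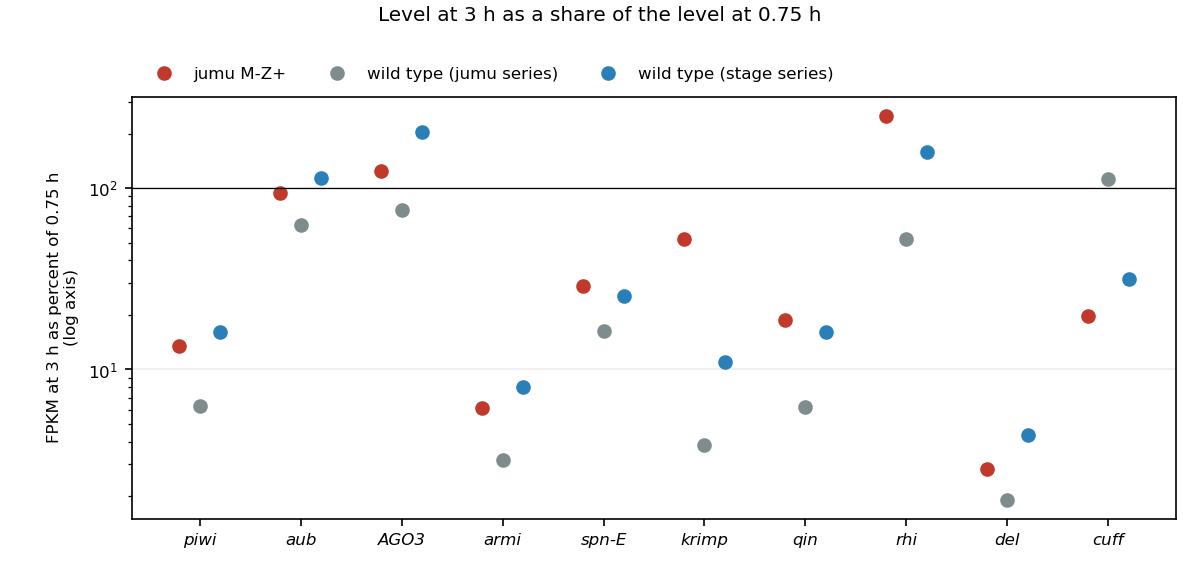
FPKM at 3 h as a percent of FPKM at 0.75 h (log axis) for the 10 genes in jumu M-Z+ embryos and in 2 wild-type series, 1 value per group and stage. krimp stood at 52.3% in M-Z+ embryos, against 3.85% and 11% in wild type, and del was below 5% in all 3.

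Maternal DMAD mutants addressed the enzyme that removes the mark. In M- DMAD embryos at 3 h 2 of the 9 members that passed the filter changed, both lower, against 5.18% of the 8501 genes tested that were lower, 21.9% that were higher and 27.0% either way. Both were cytoplasmic PIWI proteins. AGO3 was at 20.5 FPKM in M- DMAD embryos and 49.1 FPKM in their wild type (−1.22), and aub at 10.4 and 22.7 FPKM (−1.06). piwi was level, at 2.79 and 2.57 FPKM. rhi was at 32.6 FPKM in M- DMAD and 55.7 FPKM in wild-type embryos (−0.76), krimp at 8.77 and 4.44 FPKM (0.84) and del at 2.66 and 1.05 FPKM (0.84), none of which met the rule, and qin was below 1 FPKM in both. AGO3 and aub in M- DMAD embryos were also below the other 2 wild types at 3 h (131 and 150.2 FPKM for AGO3, and 55.2 and 46.3 FPKM for aub). All 9 early zygotic markers were lower in M- DMAD embryos, with a summed level of 152 against 801 FPKM. Of 7 germline markers, pgc, a germ plasm mRNA, was lower, at 459 against 1009 FPKM. It made up most of their summed level, 508 against 1052 FPKM. Levels of osk (13.2 against 6.31 FPKM), gcl, bam and orb were higher and those of nos and otu lower, none meeting the rule. Of 4 later tissue markers tested 2 were higher, among them Mhc, muscle myosin, at 29.3 FPKM in M- DMAD and 0.159 FPKM in wild-type embryos. The part of these lists in the levels of AGO3 and aub was not tested.

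The wild types of 1 stage showed how far separate collections can lie apart. Sequencing platform and read length also differed between the stage series and the 3-h jumu series, as the study states, and cannot be told apart from collection. At 3 h all 10 members differed by at least 1 in log2(FPKM + 1) between the lowest and the highest of 3 wild types, as did 73.3% of 8589 genes, with a median range of 1.37 for the members and 1.5 for all genes. spn-E was the extreme, at 2.34 FPKM in the DMAD series, 11.8 FPKM in the jumu series and 20.4 FPKM in the stage series. At 0.75 h 1 member, AGO3, differed by as much between the 2 wild types (64.2 FPKM in the stage series and 198 FPKM in the jumu series), against 8% of 7333 genes. Levels in M-Z+ embryos at 3 h were above all 3 wild types for 6 members (piwi, AGO3, spn-E, krimp, qin and del), against 29.7% of all genes, and below all 3 for cuff, against 14.9%. In M-Z- embryos 8 members were above all 3 wild types, against 29.1% of all genes, cuff lay among them at 2.59 FPKM, and rhi was below all 3, against 17.2% of all genes. In M- DMAD embryos aub, AGO3 and qin were below all 3, against 25.1% of all genes, and no member was above all 3, against 29.3%.

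Across the wild-type stage series most members fell, in 2 patterns. From 0.75 h to 3 h 7 members fell and 1 rose, against 30.5% of 8237 genes that fell, 22.8% that rose and 53.3% either way. del had 79.9 FPKM at 0.75 h, 3.49 FPKM at 3 h and 0.733 FPKM at 6 h, the steepest first step of the 10 (−4.17). armi (67.3, 5.42 and 1.94 FPKM), krimp (107, 11.8 and 2.83 FPKM), piwi (86.9, 14.0 and 4.02 FPKM), spn-E (80.7, 20.4 and 8.45 FPKM) and qin (11.4, 1.84 and 0.987 FPKM) followed the same course. The other pattern in this series was a higher level at 3 h than at 0.75 h and a fall afterwards. AGO3 had 64.2, 131 and 10.1 FPKM, aub 48.4, 55.2 and 12.7 FPKM and rhi 29.4, 46.5 and 10.3 FPKM at the 3 stages. AGO3 fell by 3.56 between 3 h and 6 h, the 69th largest fall of 9030 genes. cuff alone ended above its start, with 7.92, 2.5 and 16.4 FPKM. From 3 h to 6 h 8 members fell and cuff rose, against 16.1% of all genes that fell, 24.6% that rose and 40.7% either way. Between 0.75 h and 3 h, 4 members ran the other way in the wild type of the jumu series, where AGO3 had 198 and 150.2 FPKM, aub 74.0 and 46.3 FPKM, rhi 43.1 and 22.7 FPKM and cuff 9.52 and 10.7 FPKM.

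Levels in early wild-type embryos were close to those in the ovary. In wild-type embryos of the jumu series at 0.75 h all 10 members lay above the ovary, by between 0.08 (qin) and 0.76 (rhi), and none met the rule, against 15.5% of 7539 genes (4.89% higher and 10.7% lower). The median difference of all genes was −0.02, and the share of all genes above the ovary was not computed. In the embryos of the stage series AGO3 was lower than in the ovary by the rule (64.2 FPKM against 144 FPKM, −1.15). There piwi (86.9 against 120.1 FPKM), aub (48.4 against 59.7 FPKM), del (79.9 against 88.4 FPKM) and qin (11.4 against 13.4 FPKM) were also below the ovary, short of the rule. The direction thus depended on the collection, and no common scaling of ovary and embryo values was stated.

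A list of 36 other pathway genes, with cofactors of cluster transcription, of phased piRNA production at mitochondria, of nuage and of Piwi-directed silencing, was set beside the members. None of 35 tested changed in jumu mutant ovaries and none of 33 in M-Z+ embryos at 0.75 h, so no listed pathway gene but rhi met the rule there. At 3 h 5 of 34 were higher in M-Z+ embryos and 10 of 34 in M-Z- embryos, with none lower, against 12% and 20.2% of all genes that were higher and 9.54% and 18.9% that were lower. Their median difference was 0.31 and 0.53. Of these, 3 in M-Z+ and 6 in M-Z- embryos were genes of phased production. Gasz, a mitochondrial scaffold protein, was at 11.9 FPKM in M-Z+ and 21.6 FPKM in M-Z- embryos against 2.79 FPKM in wild type, BoYb at 32.9 and 40.1 FPKM against 12.6 FPKM, and mino at 31.7 and 46.0 FPKM against 14.6 FPKM. squ, a nuage protein, was at 91.9 and 201 FPKM against 41.0 FPKM, and vret, a Tudor-domain protein, was at 24.8 FPKM in M-Z- embryos against 7.84 FPKM in M-Z+ and 5.75 FPKM in wild-type embryos. In M- DMAD embryos 3 of 34 were lower and 1 higher, against 5.18% and 21.9% of all genes. Hen1, the methyltransferase of the piRNA end, was at 18.5 FPKM in M- DMAD and 92.1 FPKM in wild-type embryos (−2.25), and Panx, a cofactor of Piwi in the nucleus, at 121 FPKM in M- DMAD and 243 FPKM in wild-type embryos, just past the rule.

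In the wild-type stage series 11 of the 34 listed genes tested fell and 5 rose between 0.75 h and 3 h, against 30.5% and 22.8% of all genes, so the share that fell was near that of all genes. Boot (118.6, 1.82 FPKM at 0.75 h and 3 h), which exports cluster transcripts, fell by 5.4, and vas, the nuage helicase Vasa (214 and 7.80 FPKM), by 4.61. From 3 h to 6 h 14 fell and 3 rose, against 16.1% and 24.6% of all genes. SoYb (33.0 and 2.90 FPKM at 3 h and 6 h), moon (101 and 13.8 FPKM), which starts transcription at clusters, and mael (141 and 20.0 FPKM), a factor of Piwi-directed silencing, fell by 3.12, 2.78 and 2.76.

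For each member the gene of the most similar profile was sought among 7659 genes, by Pearson's r of log2(FPKM + 1) over the 12 columns. The columns share tables and wild types, and r is given as a description. The germline mRNA nanos was nearest to piwi (r = 0.989), SoYb to aub (0.952), Mitf to armi (0.994), msk to spn-E (0.993), cad to krimp (0.979), subdued to qin (0.992), E23 to del (0.998) and CG2906 to cuff (0.961). The gene nearest to AGO3 (0.959) had an identifier without a symbol in the reference. Mov10 was among the 3 nearest to both armi (0.989) and del (0.991), and BoYb was next to SoYb for aub (0.951). The nearest to rhi was CG4570 (0.927), at 34.7 FPKM in jumu mutant and 137 FPKM in wild-type ovaries, and at 56.1 FPKM in M-Z+ embryos against 222 and 241 FPKM in the 2 wild types at 0.75 h.

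The peak lists asked where the mark and the binding of Jumu lie. Each held 1 library per condition, so peak numbers and scores carry no replicate error, and the score (the −log10 of a peak's q value, multiplied by 10) was read only within a list. A peak was assigned to a gene when its centre was in the gene or within 1 kb of it, the window of the study. At 0.75 h 2 of the 10 members held a 6mA peak, AGO3 and qin, against 22.1% of the 18277 annotated genes other than transposons. The same 2 held peaks at 3 h (6.92% of all genes) and at 6 h (4.49%), and piwi joined them in the DMAD knockdown at 6 h (14.1%). A Jumu-binding peak was found at AGO3 alone, at 0.75 h (4.33% of all genes) and at 6 h (1.80%). AGO3 and qin are the longest members, at 135 kb and 59.1 kb, the other 8 being under 10 kb long. Of the 325 genes of at least 50 kb, 99.1% held a 6mA peak at 0.75 h, and of the 16235 genes under 10 kb 15.2% did. No peak of any list was within 1 kb of aub, armi, spn-E, krimp, rhi, del or cuff.

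AGO3 carried 37 6mA peaks at 0.75 h, 13 at 3 h, 4 at 6 h and 15 in the DMAD knockdown at 6 h, all of them in introns. Only 20 genes had more peaks at 0.75 h. Per 10 kb these were 2.70, 0.949, 0.292 and 1.09 peaks, against 1.27, 0.317, 0.178 and 0.608 over the genome. AGO3 holds 106 annotated transposon insertions that cover 70.5% of the gene, and 36 of the 37 peak centres at 0.75 h lay in one of them. Joined over the 6 lists the peaks formed 40 regions, of which 25 were in the 0.75-h list and in no later wild-type list, and 8 were in the knockdown list but not in the 6-h wild type, 7 of these also at 0.75 h. All 4 Jumu-binding peaks at 0.75 h and both at 6 h lay in intron 8, and each overlapped a 6mA peak of the 0.75-h list. Reads of repeated sequence cannot be placed with certainty, which limits the position of these peaks.

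Of the 40 regions 1 was in all 6 lists. It lay in a Porto1 element of intron 8, where the scores were 513 at 0.75 h, 21 at 3 h, 117 at 6 h and 533 in the knockdown for 6mA, and 172 at 0.75 h and 74 at 6 h for Jumu binding. A neighbouring region, also in Porto1, was in 5 lists and not in that of 3 h, with 6mA scores of 732 at 0.75 h, 98 at 6 h and 484 in the knockdown and Jumu scores of 208 and 92. The highest 6mA score of AGO3 at 0.75 h, 1470, was that of chr3L:23671503-23672235, in GATE and Stalker4 elements, where peaks of the other lists scored 237 at 3 h, 131 at 6 h and 1379 in the knockdown. At 3 h the highest score was 551, at chr3L:23571721-23572191.

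**Figure D5:**
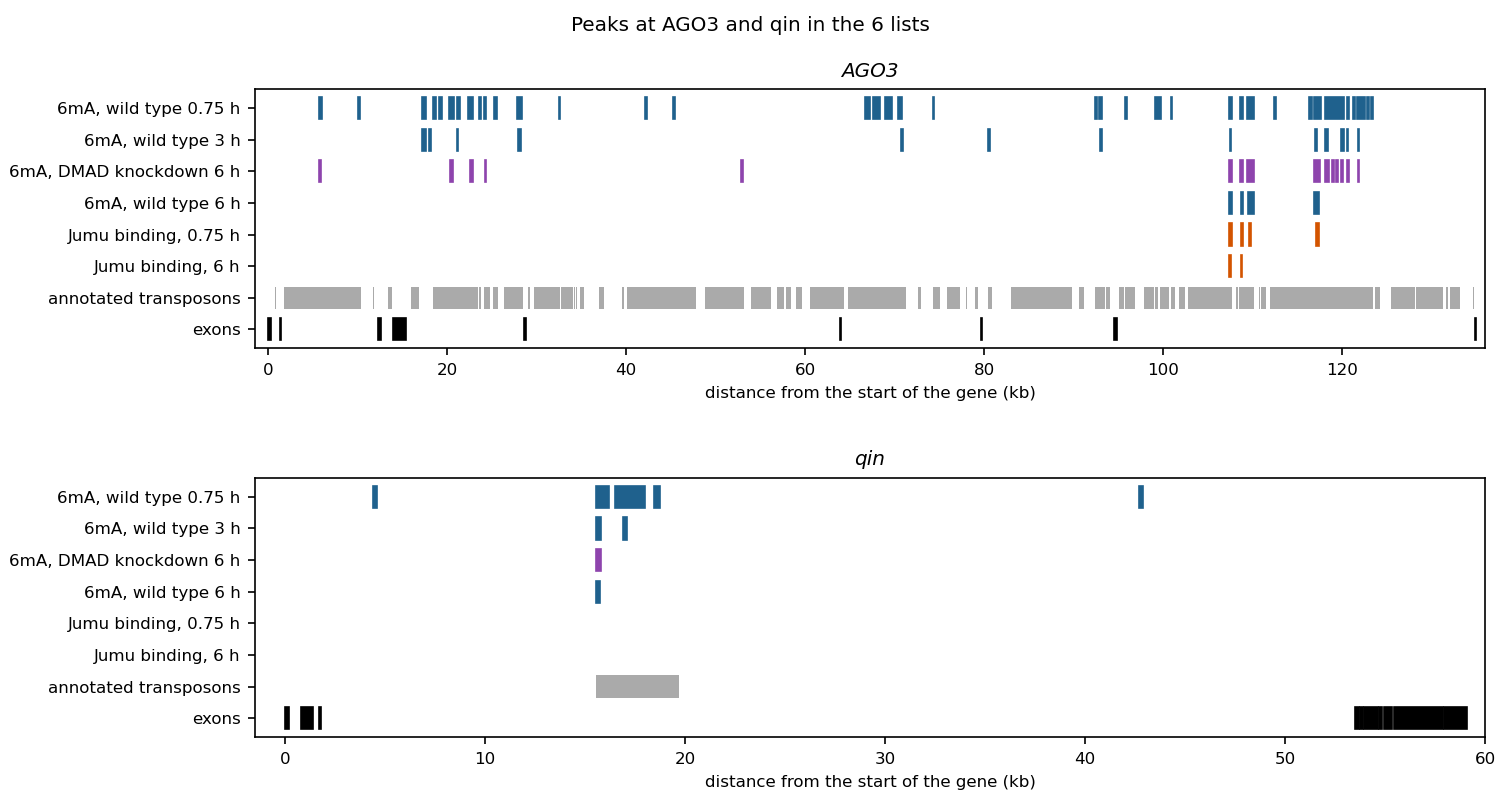
Peaks of the 6 lists along AGO3 (upper map) and qin (lower map), drawn to scale against the distance from the start of the gene in kb, with annotated transposon insertions (grey) and exons (black) below. AGO3 had 37 6mA peaks at 0.75 h and 4 at 6 h in wild type, all in introns, and its Jumu-binding peaks lay between 107 and 117 kb from the start. In qin the peak found in all 4 6mA lists lay at the edge of the transposon insertion.

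In qin 5 6mA peaks at 0.75 h, 2 at 3 h, 1 at 6 h and 1 in the DMAD knockdown all lay in intron 3. Each peak centre also lay inside another annotated gene, on the opposite strand, so the assignment to qin is not unique. That gene was CG14301 for chr3R:18633742-18633924 and CG14304 for the rest. One of the qin peaks was common to the 4 lists and lay at the end of an F element, the only annotated insertion in qin. Its score was 2389 at 0.75 h, the 460th highest of that list, 889 at 3 h, 229 at 6 h and 1497 in the knockdown. The single peak of piwi, chr2L:10985572-10986129, was in the knockdown list alone with a score of 102, and 557 of its 558 bases were coding sequence of exon 2. With 1 knockdown library, it has no replicate check.

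The sequences below are those on which the peak results turn: the stretches common to all lists that hold the 2 Porto1 sites of AGO3 and the F-element site of qin, and the middle of the piwi peak. They were read from the plus strand of dm6 (RefSeq), and capitals mark the forkhead core, here any of ACAAACA or ACAAATA or ATAAACA or ATAAATA or GCAAACA or GCAAATA or GTAAACA or GTAAATA, on either strand. The first, chr3L:23662051-23662215 (165 bases), was common to 6 lists, the next, chr3L:23663288-23663459 (172 bases), to 5 lists, that of qin, chr3R:18606556-18606799 (244 bases), to 4 lists, and that of piwi is chr2L:10985751-10985950 (200 bases).
AGO3 intron 8, site in all 6 lists: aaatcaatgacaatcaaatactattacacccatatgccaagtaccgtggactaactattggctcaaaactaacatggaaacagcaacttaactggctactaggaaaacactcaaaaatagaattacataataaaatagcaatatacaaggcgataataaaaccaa
AGO3 intron 8, site in 5 lists: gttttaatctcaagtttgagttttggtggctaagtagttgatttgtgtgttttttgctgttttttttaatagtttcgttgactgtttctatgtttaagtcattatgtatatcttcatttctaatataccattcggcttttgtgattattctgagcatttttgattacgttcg
qin intron 3, F element: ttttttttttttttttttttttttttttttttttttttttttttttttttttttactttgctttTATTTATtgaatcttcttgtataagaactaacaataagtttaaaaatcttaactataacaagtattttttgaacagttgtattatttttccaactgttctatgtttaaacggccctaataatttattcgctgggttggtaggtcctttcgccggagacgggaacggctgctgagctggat
piwi exon 2, DMAD knockdown: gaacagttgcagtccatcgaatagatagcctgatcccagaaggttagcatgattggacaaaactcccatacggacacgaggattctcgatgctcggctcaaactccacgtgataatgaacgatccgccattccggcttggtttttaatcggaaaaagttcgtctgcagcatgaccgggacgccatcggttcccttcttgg
The core was found once, in the stretch of qin, and in neither stretch of AGO3 bound by Jumu, which says only that these letters are not in these windows. Of all genome windows of 165 bases 34.8% held the core, and of windows of that length centred on the 0.75-h 6mA peaks 45.6%, and for 244 bases the shares were 46.2% and 57.1%. The middle 100 bases of the stretch of qin occurred 67 times in the assembled chromosomes, those of the first AGO3 stretch 2 times and those of the other AGO3 stretch and of piwi once. The content of G and C was 32.1%, 29.6% and 26.6% in the stretches of AGO3 and qin and 50.0% in that of piwi.

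Peaks and levels are set side by side here with no test of a relation between them. rhi and krimp held no 6mA or Jumu-binding peak within 1 kb in any list, while with a window of 5 kb both held a 6mA peak at 0.75 h and rhi also in the DMAD knockdown. How many of all genes hold a peak within 5 kb was not computed. AGO3 held both kinds of peak. Its level was 143 FPKM in jumu mutant and 144 FPKM in wild-type ovaries, 192 FPKM in M-Z+ and 198 FPKM in wild-type embryos at 0.75 h, and 237 FPKM in M-Z+ and 276 FPKM in M-Z- against 150.2 FPKM in wild-type embryos at 3 h. In M- DMAD embryos AGO3 had the largest difference of the members (−1.22), though these were not the knockdown embryos of the peak list. qin, with 6mA peaks, changed in M-Z+ and M-Z- embryos at 3 h (1.07 and 2.14) and was at 11.3 FPKM in mutant and 13.4 FPKM in wild-type ovaries.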

How the data were processed

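Expression was read from 7 tables of FPKM values that the authors deposited, 1 value per gene and group, after removal of ribosomal RNA reads, mapping with STAR to dm6 and Cuffdiff, as given in the methods of the study. The authors also deposited 6 peak lists with a score per peak from Bowtie2 mapping and MACS2 against IgG at a q value limit of 0.05. TopHat2 and FastQC are also named in the submitters' processing notes. The zld overexpression and DMAD knockdown RNA libraries were not analysed here. The members were chosen by name, and both they and the lists were chosen with earlier results of these data known. Named were all members, the genes of most similar profile and, of the other listed genes, those with a difference of at least 1 and a mean FPKM of at least 5, at most 6 in each comparison. Differences were computed with Python 3.11.15 and pandas 2.3.3, and the computation was tested on simulated data. Alternatives were a pseudocount of 0.1, no filter, median centring, quantile normalization, other wild types, a stricter q value and other gene windows. Of the listed genes, sov, Top2 and eEF1alpha1 were not in the tables used here.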

Additional observations from a re-analysis of the deposited data

Results flagged for a closer look

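Between 0.75 h and 3 h 3 members had differences of opposite sign in jumu M-Z+ embryos against wild type, with at least 1 of the 2 differences meeting the rule. krimp was at −0.69 at 0.75 h and 2.79 at 3 h, rhi at −1.86 and 0.29, and cuff at 0.12 and −1.93. With 1 value per group, whether the 2 stages differ was not tested. The values at 3 h are those against the wild type of the jumu series, and cuff, against that of the stage series, was at −0.19.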

How the results depend on the processing

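No paired analysis was possible because each group had 1 deposited value, and for the same reason no replicate could be left out. Another wild type moved the counts of changed members most. In M-Z+ embryos at 3 h 8 members changed against the wild type of the DMAD series and 1, krimp, against that of the stage series (also 1 after quantile normalization), in place of 4. In M- DMAD embryos 4 changed against the wild type of the jumu series (5 after quantile normalization) and 7 against that of the stage series (7 after quantile normalization), in place of 2. With the stage-series wild type at 0.75 h 2 members changed in M-Z+ embryos, rhi and AGO3, and 1 changed between embryo and ovary. For these other wild types the share of all genes that changed was not computed. The counts therefore show only how far the calls depend on the reference. Among the 3-h wild types themselves 73.3% of all genes had a range of at least 1. The sign of cuff in M-Z- embryos turned against the stage series, to 0.035 (0.46 after quantile normalization). With the median centred at 0 qin lay just under the rule in M-Z- against M-Z+ embryos, leaving 1 member, and so did qin in M-Z+ and del in M-Z- embryos against wild type. With a pseudocount of 0.1 8 other pathway genes changed in M-Z+ embryos at 3 h, in place of 5. With a window of 5 kb 4 members held a 6mA peak at 0.75 h (krimp and rhi added), 4 in the knockdown (rhi added) and 2 a Jumu-binding peak at 0.75 h (qin added). The share of all genes with a peak in this wider window was not computed, so these counts have no background. All other counts stayed within 1.5 times, though not always with the same members: against the stage series 6 changed in M-Z- embryos, AGO3 and rhi in place of piwi, del and cuff. Quantile normalization within the table ended the call of spn-E in M-Z+ embryos (0.94). The FPKM tables give no depth, the 3-h wild types differ by a median of 1.5 in log2(FPKM + 1), and no common scaling of the tables is stated, so differences between tables and small differences within them are not resolved. The fall of rhi in the ovary and at 0.75 h met the rule under every alternative run.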
